A study of Triticum aestivum with 12 samples.

Results

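The TaCER1-1 and TaCER1-6 genes of bread wheat were followed in flag leaf RNA of 4 modern spring varieties. The members are the 3 TaCER1-1 genes on chromosomes 1A, 1B and 1D and the 3 TaCER1-6 genes on chromosomes 6A, 6B and 6D that the study lists for the alkane-forming pathway. All 6 were found among the 107411 genes of the table, and 74182 of these had a value above 0 somewhere. The Western ecozone was represented by AAC Concord and AAC Starbuck, and the Eastern ecozone by AAC Tradition and AAC Magnet. Each variety had 3 replicates of untreated plants, giving 12 libraries. The labels describe field plots, whereas the study's caption for these RNA samples places the plants in a greenhouse under control conditions. The normalized counts themselves do not settle this difference.

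Alkanes are a major class of the waxes that coat the leaf surface and limit water loss outside the stomata. They are made from very long chain fatty acids by an enzyme complex in which CER1, first known from Arabidopsis, acts together with CER3. Bread wheat is a hexaploid with A, B and D subgenomes, so that most genes occur as a triad of homoeologues, which are copies of one ancestral gene on the corresponding chromosomes of the subgenomes. The share of a homoeologue is its value divided by the sum of its triad in the same library, and it does not depend on how the library was scaled.

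Levels are normalized counts, which the authors deposited and which were taken as not corrected for gene length. Shares and orders of homoeologues are therefore shares and orders of counts. The authors quantified reads with Salmon, which divides reads that match several homoeologues between them, and the part of this step in the shares was not tested. Reads are estimates throughout: the members' values departed from whole steps by up to 0.468 of a step, so a count may be off by a few reads. A library held 4484541 to 7095093 reads, as estimated from the step of 0.798 to 1.24 normalized counts between its low values. A value of 0 allows up to 3 reads, which is 2.39 to 3.72 normalized counts depending on the library. Only the TaCER1-1 genes TraesCS1A02G150900 and TraesCS1B02G168500 and the TaCER1-6 gene TraesCS6B02G255100 reached the filter of 10 normalized counts in at least 3 libraries, so 3 of the 6 members passed it. The other 3 were kept in the tests although they lie below it. The identifiers carry no annotation beyond the study's wax list, so the leaf tissue was not checked against marker genes.

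**Figure D1:**
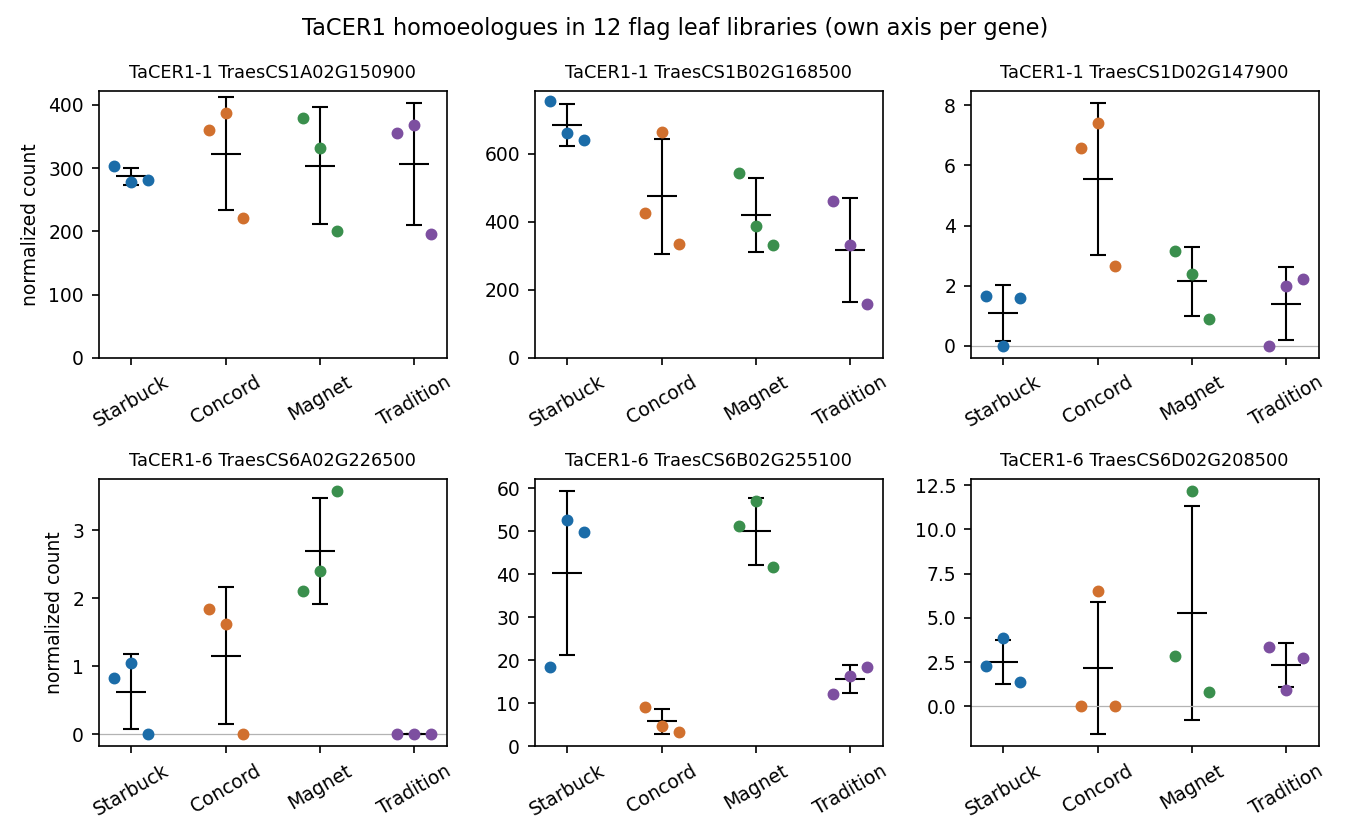
Normalized counts of each TaCER1 homoeologue (vertical axis, own range for each gene) in the 4 varieties. Points are libraries in the order of replicates 1 to 3, and black marks show the mean with its SD (n = 3). The varieties overlap for TraesCS1A02G150900. The mean of TraesCS1B02G168500 is highest in AAC Starbuck, although replicate 2 of AAC Concord lies above replicates 2 and 3 of AAC Starbuck. The libraries of TraesCS6B02G255100 in AAC Concord lie below those of every other variety.

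The B homoeologue held the largest share of the TaCER1-1 counts in 3 varieties, and the A and B homoeologues were close to equal in AAC Tradition. Over the 12 libraries TraesCS1B02G168500 held 59.2% ± 8.66 (SD, n = 12) of its triad, TraesCS1A02G150900 held 40.4% ± 8.54 and TraesCS1D02G147900 held 0.340% ± 0.268. The B gene was the highest of the triad in 10 of 12 libraries and the A gene in the other 2, which were replicates 2 and 3 of AAC Tradition. The D gene was never the highest.

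AAC Starbuck stood apart in the share of TraesCS1B02G168500, which was 71.3%, 70.4% and 69.4% in replicates 1, 2 and 3. In AAC Concord the share was 53.8%, 62.7% and 60.0%. In AAC Magnet it was 58.7%, 53.7% and 62.3%. The libraries of AAC Starbuck were thus above all of these, whereas AAC Concord and AAC Magnet overlapped. In AAC Tradition the share was 56.5%, 47.3% and 44.4%, so its highest library lay within the range of both AAC Concord and AAC Magnet and the other libraries lay below it. The counting error of a share is small here, since the triad held 322 to 1286 estimated reads in a library. Replicate 3 of AAC Starbuck had a 95% interval (exact Clopper-Pearson) of 66.7% to 72.1%, and replicate 1 of AAC Tradition one of 52.6% to 60.3%. These intervals cover counting error only.

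By variety, the B share averaged 70.4% ± 0.926 (SD, n = 3) for AAC Starbuck. The mean was 58.8% ± 4.53 for AAC Concord, 58.2% ± 4.29 for AAC Magnet and 49.4% ± 6.32 for AAC Tradition. The difference between AAC Starbuck and AAC Tradition was 21.0 percentage points. The share differed across varieties by more than between replicates (exact permutation of the F statistic with all 15400 ways to form 4 groups of 3, p = 0.0027, and 0.0053 adjusted over both triads). The neighbours in this order overlap except AAC Starbuck, whose 3 libraries did not overlap with any other variety. A comparison of 3 libraries with 3 cannot give an exact two-sided p below 0.10, so pairs of varieties were not tested for the share. The D gene contributes little to this pattern: with the A and B genes alone the exact permutation test gave p = 0.0025.

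**Figure D2:**
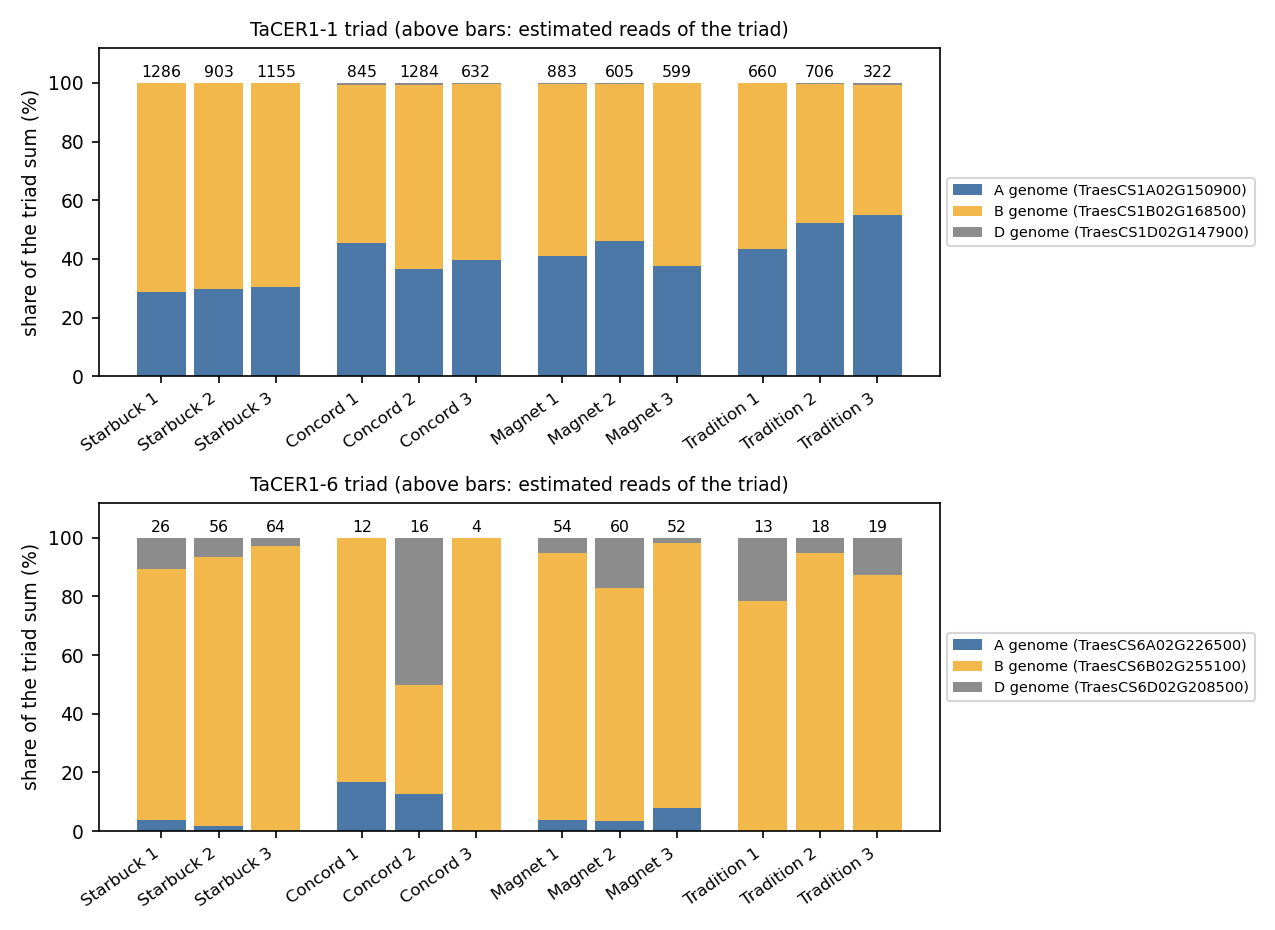
Share of each homoeologue in the sum of its triad (vertical axis, percent) in each of the 12 libraries, with the estimated reads of the triad above the bars. The B gene of TaCER1-1 takes 69.4% to 71.3% in AAC Starbuck and 44.4% to 56.5% in AAC Tradition, and the B gene of TaCER1-6 is the largest in 11 of 12 libraries.

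The levels behind these shares are given for each homoeologue. TraesCS1A02G150900 was at 303, 277 and 280 normalized counts in AAC Starbuck and at 359, 388 and 222 in AAC Concord. It was at 379, 332 and 200.1 in AAC Magnet and at 356, 367 and 196 in AAC Tradition. The varieties overlapped completely for this gene. Limma, which fits a linear model with a shared estimate of the spread to all genes, gave TraesCS1A02G150900 an adjusted p of 0.98 in the F test across varieties.

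TraesCS1B02G168500 was at 756, 660 and 641 normalized counts in AAC Starbuck and at 427, 664 and 336 in AAC Concord. It was at 543, 388 and 332 in AAC Magnet and at 462, 332 and 158 in AAC Tradition. The lowest library of AAC Starbuck was above all libraries of AAC Magnet and AAC Tradition, but below replicate 2 of AAC Concord. The mean was 686 ± 61.8 (SD, n = 3) in AAC Starbuck, against 476 ± 169, 421 ± 109 and 317 ± 153 in AAC Concord, AAC Magnet and AAC Tradition. As a level this difference did not pass the threshold (limma F test, adjusted p = 0.13 over all genes tested). In the widest pair AAC Starbuck exceeded AAC Tradition by 1.24 on the log2 scale (standard error 0.37, limma's adjusted p = 0.076). This passed at an adjusted p of 0.039 from limma without replicate 1 of AAC Tradition, at 0.034 with a trend in its variance and at 0.047 among genes averaging at least 50. The neighbours in the order of levels had log2 fold changes of 0.58, 0.15 and 0.51, with adjusted p of 0.35, 0.84 and 0.48 from limma.

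The ratio of TraesCS1B02G168500 to TraesCS1A02G150900 put the same values on one scale. It was 2.50, 2.38 and 2.29 in AAC Starbuck, and at most 1.71 in any library of the other varieties. In AAC Tradition the ratio was 1.30, 0.903 and 0.808, so the homoeologue in front changed between its replicates. The interval of replicate 2 of AAC Tradition for the B share, 43.6% to 51.1%, includes an equal split.

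**Figure D3:**
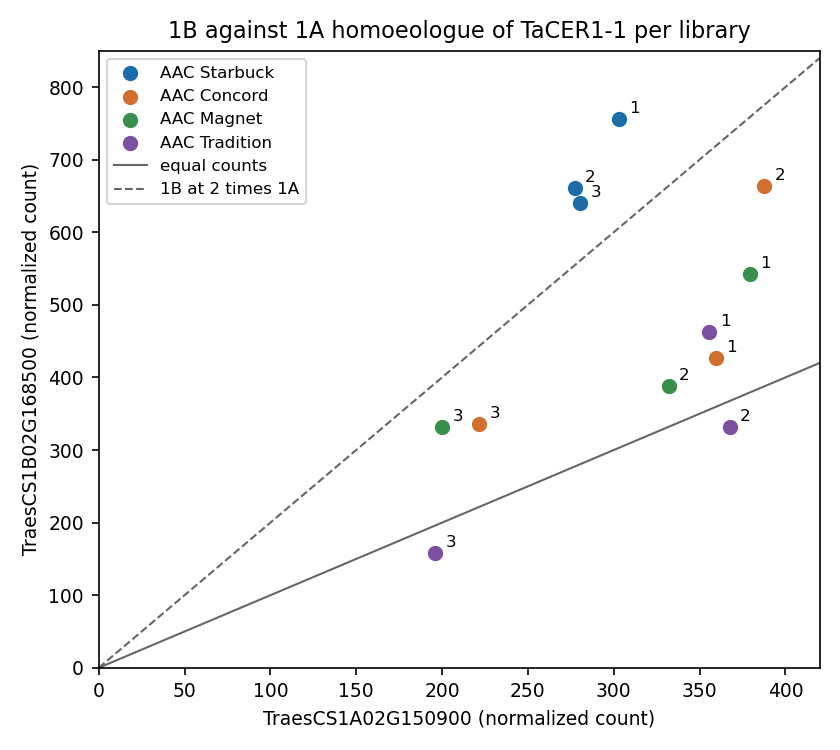
Normalized counts of TraesCS1B02G168500 (vertical axis) against TraesCS1A02G150900 (horizontal axis) in each library, numbered by replicate. The solid line marks equal counts and the dashed line a ratio of 2, and only the 3 libraries of AAC Starbuck lie above the dashed line while replicates 2 and 3 of AAC Tradition lie below the solid one.

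Within a variety the A and B genes of TaCER1-1 varied together over all 12 libraries. Replicate 3 was the lowest of its variety for both genes in AAC Concord, AAC Magnet and AAC Tradition. There, TraesCS1A02G150900 was at 54.2% to 59.4% of the mean of replicates 1 and 2 and TraesCS1B02G168500 at 39.9% to 71.3%. In AAC Starbuck replicate 3 was at 96.6% and 90.4% of that mean, and it was the lowest for the B gene there too. After the variety means were removed, the logarithms of both genes had a Pearson correlation of 0.859 over 12 libraries (exact permutation within varieties, p = 0.0039, or 0.012 adjusted over the 3 pairs of genes tested) and a Spearman's rho of 0.825 (exact permutation, p = 0.012, adjusted p = 0.037). Without the 2 libraries farthest from the median, which were the third replicates of AAC Tradition and AAC Magnet, r was 0.75 with an exact permutation p of 0.19, so the relation rests in part on those libraries. It was 0.764 (exact permutation, p = 0.12) without replicate 3 of AAC Tradition alone, and 0.889 and 0.864 (both with an exact permutation p of 0.056) without replicate 1 or replicate 2 of that variety. The labels name no sequencing batch or date. The low value of replicate 3 did not move the share one way, since the B share of replicate 3 was the highest of the 3 in AAC Magnet, the lowest in AAC Tradition and in the middle in AAC Concord.

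TraesCS1D02G147900, the D homoeologue of TaCER1-1, was near the detection limit. It had 7, 9 and 3 estimated reads in AAC Concord and 3, 2 and 1 in AAC Magnet. AAC Starbuck had 2, 0 and 2, and AAC Tradition 0, 2 and 2. Of its 33 reads in all libraries 19 came from AAC Concord, and replicate 3 of AAC Concord overlapped with AAC Magnet. The mean level was 5.55 ± 2.54 normalized counts (SD, n = 3) for AAC Concord and 1.08 ± 0.937 for AAC Starbuck. AAC Starbuck against AAC Concord was a DEG of TraesCS1D02G147900 with the filter at a mean of 50 (limma's adjusted p = 0.043) and without replicate 1 of AAC Tradition (limma's adjusted p = 0.038), but under no other alternative tried and not with the filter of 10 normalized counts and all libraries (limma's adjusted p = 0.066). Its adjusted p across varieties was 0.12 in limma's F test, and it never exceeded 0.828% of the triad in a library.

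The TaCER1-6 triad was carried by TraesCS6B02G255100, the B homoeologue, in 11 of 12 libraries. The exception was replicate 2 of AAC Concord, where TraesCS6D02G208500 had 8 estimated reads against 6 of the B gene and 2 of the A gene. The B share was 85.6%, 91.5% and 97.4% in AAC Starbuck. It was 91.2%, 79.7% and 90.4% in AAC Magnet and 78.4%, 94.7% and 87.2% in AAC Tradition. In AAC Concord it was 83.2%, 37.3% and 100% of only 12, 16 and 4 estimated reads. The exact Clopper-Pearson interval of replicate 2 of AAC Concord ran from 15.2% to 64.6% and that of replicate 3 from 39.8% upwards, so the shares of this variety are poorly determined.

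No difference across varieties beyond the spread between replicates was detected for the B share of TaCER1-6 (exact permutation test, p = 0.76). The means were 91.5% ± 5.90 (SD, n = 3) for AAC Starbuck, 87.1% ± 6.45 for AAC Magnet, 86.7% ± 8.18 for AAC Tradition and 73.5% ± 32.5 for AAC Concord. The order of the means rests on replicate 2 of AAC Concord: without it AAC Concord was the highest variety and AAC Tradition the lowest, with a span of 4.86 percentage points.

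Unlike its share, the level of TraesCS6B02G255100 passed the test across varieties. It was at 51.1, 57.1 and 41.6 normalized counts in AAC Magnet, and at 18.5, 52.6 and 49.8 in AAC Starbuck. In AAC Tradition it was at 12.1, 16.5 and 18.3, and in AAC Concord at 9.15, 4.82 and 3.46. The libraries of AAC Concord were below all others, those of AAC Magnet were above all of AAC Tradition, and replicate 1 of AAC Starbuck lay just above AAC Tradition, far from the other replicates of its variety. In estimated reads, the 3 libraries together held 144 for AAC Magnet, 135 for AAC Starbuck, 44 for AAC Tradition and 20 for AAC Concord.

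TraesCS6B02G255100 was called across varieties by limma's F test (adjusted p = 0.0012 over all genes tested, exact permutation test of this gene alone p = 7.8e-04). A second member, TraesCS6A02G226500, was called as well, so that 2 of 6 members were called where 22.1% of all 44043 genes tested were. Of the genes tested, 44026 entered through the filter of 10 normalized counts, which TraesCS6A02G226500 did not reach. The 6 pairs of varieties for 6 genes gave 36 comparisons, of which 4 were differentially expressed (DEG, an adjusted p under 0.05 with a log2 fold change above 1 or below -1). Over all genes 7.10% of such comparisons were DEGs. For the pairs without a member called, the share of all genes was 6.12% for AAC Starbuck against AAC Magnet, 4.97% for AAC Starbuck against AAC Tradition and 7.05% for AAC Concord against AAC Tradition. In 12 of the 36 the p before adjustment was under 0.05 in limma. The share of all genes under this limit was not counted. This number, and that for TaCER1-1 in the next sentence, therefore cannot be set against a background. None of the 18 comparisons of TaCER1-1 genes was a DEG in this fit, with 3 of them at a p under 0.05 before adjustment in limma. The alternatives that called TraesCS1B02G168500 or TraesCS1D02G147900 in a pair stand beside their values.

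TraesCS6B02G255100 made 3 of the 4 DEG calls. It was lower in AAC Concord than in AAC Magnet by a log2 fold change of -2.98 (standard error 0.40, limma's adjusted p = 5.6e-04, 4.90% of all genes lower at this call). It was higher in AAC Starbuck than in AAC Concord by 2.55 (standard error 0.40, limma's adjusted p = 0.0016, 5.54% of all genes higher). Both calls held when any of the 12 libraries was left out. AAC Magnet was above AAC Tradition by 1.62 (limma's adjusted p = 0.030, 2.79% of all genes higher), and this call was lost without any 1 of the 6 libraries of the pair, with limma's adjusted p of 0.055 to 0.10.

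In the order of the levels of TraesCS6B02G255100, no difference beyond the spread was detected between AAC Magnet and AAC Starbuck (log2 fold change of AAC Starbuck against AAC Magnet -0.43, standard error 0.40, limma's adjusted p = 0.61). AAC Starbuck against AAC Tradition had a log2 fold change of 1.20 (limma's adjusted p = 0.11), which became 1.67 (limma's adjusted p = 0.016) without replicate 1 of AAC Starbuck, the low library of that variety. AAC Concord against AAC Tradition had -1.36 (limma's adjusted p = 0.058). The pair passed at 0.016 without replicate 1 of AAC Starbuck and at 0.035 without replicate 1 of AAC Concord (limma's adjusted p). It also passed at 0.043 with a trend in limma's variance and at 0.038 among genes averaging at least 50. Replicate 1 of AAC Starbuck was not low in TaCER1-1, where it had the highest values of its variety.

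**Figure D4:**
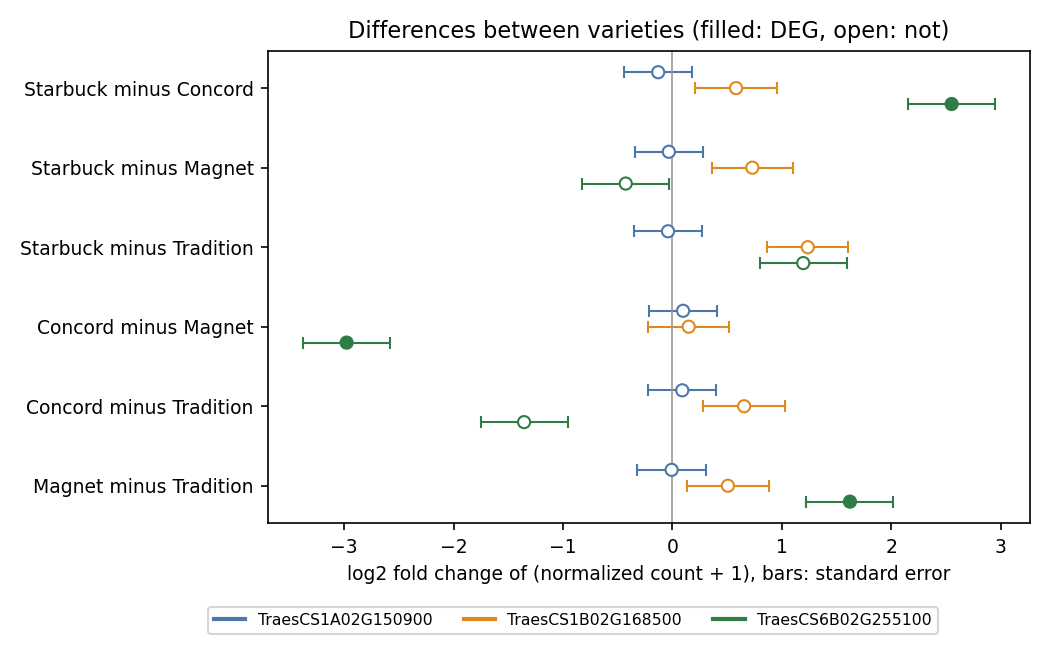
Log2 fold changes of normalized count + 1 (horizontal axis) of TraesCS1A02G150900, TraesCS1B02G168500 and TraesCS6B02G255100 between each pair of varieties, with standard errors as bars. Filled points are DEGs, all of them of TraesCS6B02G255100, while the points of TraesCS1A02G150900 lie between -0.13 and 0.10.

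TraesCS6A02G226500, the A homoeologue of TaCER1-6, rests on 14 estimated reads in all. The libraries of AAC Magnet held 2, 2 and 4 reads, those of AAC Concord 2, 2 and 0, and those of AAC Starbuck 1, 1 and 0. All 3 libraries of AAC Tradition were at 0. AAC Magnet was above 0 in each library, at 2.11, 2.40 and 3.58 normalized counts against at most 1.85 elsewhere. In reads its replicates 1 and 2 equalled replicates 1 and 2 of AAC Concord, so the groups overlap. Limma's F test called it across varieties (adjusted p = 0.025) and AAC Magnet against AAC Tradition was a DEG (limma's adjusted p = 0.012). No fold change is given, because the mean of AAC Magnet lies below the value of 3 reads that a 0 in AAC Tradition allows. The exact permutation test of this gene alone gave p = 0.018 before adjustment. The call across varieties was lost without any 1 library of AAC Magnet or of AAC Tradition, with limma's adjusted p of 0.050 to 0.079, and with a trend in limma's variance (adjusted p = 0.095). The DEG call was lost without replicate 3 of AAC Magnet (limma's adjusted p = 0.053) and, by its fold change, with a pseudocount of 4.

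TraesCS6D02G208500, the D homoeologue, varied widely between replicates. It was at 2.82, 12.2 and 0.823 normalized counts in AAC Magnet and at 0, 6.49 and 0 in AAC Concord. In AAC Starbuck it was at 2.29, 3.84 and 1.35, and in AAC Tradition at 3.34, 0.919 and 2.70. The varieties overlapped (limma's F test, adjusted p = 0.67). Replicate 2 was the highest in 3 of the 4 varieties, with at most 10 estimated reads.

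The order of varieties was not compared between TaCER1-1 and TaCER1-6 by a test. Within varieties, TraesCS6B02G255100 had a Pearson correlation of 0.123 with TraesCS1A02G150900 and of -0.20 with TraesCS1B02G168500 (exact permutation, adjusted p = 0.66 for both), and a Spearman's rho of -0.042 and -0.26 (exact permutation, adjusted p = 0.89 and 0.69). No relation of either sign was detected.

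The genes around the members were taken in the order of their identifiers, with 10 tested genes on each side. Of the 20 neighbours, 7 (35%) were called across varieties by limma's F test around TraesCS1A02G150900 and 3 (15%) around TraesCS1B02G168500, beside the background of 22.1%. Around TraesCS6B02G255100 6 (30%) were called, and around each of the other members 2 or 3. Of the 12 nearest tested genes, 1 on each side of a member, 1 was called. It was TraesCS6A02G226100 beside TraesCS6A02G226500 (limma's F test, adjusted p = 0.016), with a mean of 81.5 normalized counts for AAC Magnet, the highest variety, and of 50.9 ± 2.32 (SD, n = 3) for AAC Tradition, the lowest. Of the 20 neighbours of TraesCS6A02G226500, 0 were DEGs between AAC Magnet and AAC Tradition, so this neighbour was not called in the pair as the member was. Around TraesCS6B02G255100, 2 to 4 of the 20 neighbours were DEGs in each pair, in either direction. Over all genes and the 6 pairs together 7.10% of comparisons were DEGs. Its neighbour TraesCS6B02G254700 averaged 60.6 ± 3.23 normalized counts (SD, n = 3) in AAC Concord and 53.6 ± 6.34 in AAC Magnet. The lowest mean of TraesCS6B02G254700 was 39.7 ± 5.64, in AAC Starbuck. TraesCS6B02G255500 averaged 64.8 ± 4.75 in AAC Concord and 69.5 ± 6.06 in AAC Magnet. Around TraesCS1B02G168500, TraesCS1B02G168200 averaged 189 ± 13.1 in AAC Starbuck and 189 ± 30.6 in AAC Tradition, and TraesCS1B02G168600 averaged 131 ± 14.6 and 133 ± 2.32. Around TraesCS1A02G150900, TraesCS1A02G150600 and TraesCS1A02G151000 had adjusted p of 0.79 and 0.39 in limma's F test. These 6 neighbours of the members above the filter had adjusted p of 0.087 to 0.90 from limma.

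Of the genes averaging at least 50 normalized counts, those most like TraesCS6B02G255100 over the 12 libraries were TraesCS3D02G149300 (Pearson's r = 0.952), TraesCS6B02G458347 (0.95) and TraesCS5D02G012100 (0.933). As an example, TraesCS6B02G458347 averaged 133 normalized counts for AAC Magnet, 103 for AAC Starbuck, 53.3 for AAC Tradition and 25.6 for AAC Concord. All 3 genes had the varieties in the order of the TaCER1-6 gene, which their choice by correlation favours. Most like TraesCS1B02G168500 were TraesCS6D02G335000 (0.927), TraesCS2A02G290600 (0.919) and TraesCS1B02G128400 (0.889). Most like TraesCS1A02G150900 were TraesCS7B02G159400 (0.907), TraesCS3D02G304900 (0.896) and TraesCS3B02G339300 (0.894). The genes named are the highest of 20928 or 20929 correlations per member, over libraries that share varieties, so these values are a description. On this measure, without removal of variety means, TraesCS1A02G150900 and TraesCS1B02G168500 had r = 0.556. TraesCS1B02G168500 ranked 497 of 20928 for TraesCS1A02G150900, which ranked 925 for TraesCS1B02G168500.

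The study lists 33 further genes of wax formation, for primary alcohols and for β-diketones, of which 22 were detected and tested. Of these, 5 were called across varieties by limma's F test, beside 22.1% of all genes. They were TraesCS4B02G363100 of TaFAR4 (adjusted p = 0.047) and TraesCS4B02G006800 of TaFAR5 (adjusted p = 0.0021), both fatty acyl reductase genes, TraesCS2B02G006700 and TraesCS2B02G006800 (adjusted p = 0.033 and 0.0101), which encode polyketide synthases, and the P450 gene TraesCS2B02G005800 (adjusted p = 0.029). Between AAC Concord and AAC Magnet, the pair with the largest difference in TraesCS6B02G255100, 1 of the 22 was a DEG, lower in AAC Concord, beside 4.90% of all genes. Between AAC Starbuck and AAC Tradition, the pair with the largest difference in the share of TraesCS1B02G168500, 1 was a DEG, higher in AAC Starbuck, beside 4.97% of all genes in both directions. Both counts are near the background. The DEG of AAC Concord against AAC Magnet was TraesCS4B02G006800, at means of 0 and 6.61 normalized counts. That of AAC Starbuck against AAC Tradition was TraesCS2B02G005800, at means of 5.07 and 0. Both genes lie below the filter of 10 normalized counts, so these calls, and their calls across varieties, rest on low values.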

How the data were processed

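The deposited table gives normalized counts, a signal per gene and library that the authors made from their reads. They trimmed reads with Trimmomatic, quantified them with Salmon against the IWGSC RefSeq v2.1 reference, and the authors used DESeq2 for their own comparisons. How the counts were normalized is not given in the sources used here. Identifiers have the RefSeq v1.1 form, and 0 of them matched the RefSeq gene table of 155467 genes, so positions are the order of identifiers.

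Reads were estimated as the value divided by the step between low values of a library, and rounded. Between 85.3% and 91.3% of the low values of a library lay within 0.05 of a whole step, and no count model was run. The rounding moved values of TraesCS6B02G255100 and TraesCS6D02G208500 by up to 0.443 of a step.

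Limma 3.58.1 in R 4.3.3 was fitted to log2(value + 1) of 44043 genes in 1 fit of 12 libraries with variety as the only term. The filter was 10 normalized counts in 3 or more libraries, and the study's wax genes were kept at any level above 0. A fold change on this scale understates the change of low genes. Benjamini-Hochberg adjustment ran over all genes tested. The labels do not say more of the replicates than that they are separate samples, so p-values measure the spread between these. Shares were tested by exact permutation with Python 3.11.15, scipy 1.17.1 and numpy 2.4.6. The limma step was tested on simulated data, in which only genes averaging at least 50 normalized counts were changed. It does not cover TraesCS6B02G255100, which averaged 27.9 normalized counts, or the members below the filter. All exact tests were two-sided or of the F statistic. The named genes are the members, the 3 genes most like each member above the filter, their nearest tested neighbours, and other wax genes called by the F test. The members, lists and tests were chosen with earlier results of these data known. The alternatives were other pseudocounts, filters and scalings, a trend, a replicate block, pairs fitted alone and each library left out.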

Additional observations from a re-analysis of the deposited data

How the results depend on the processing

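The share of TraesCS1B02G168500 differed across varieties under each alternative that gave a test, with exact permutation p of 8.4e-04 to 0.011 when a library was left out (18.5 to 24.5 percentage points between the highest and the lowest variety). With permutation within replicate numbers as a replicate block the exact p was 0.016, and 0.80 for TraesCS6B02G255100. Leaving out replicate 3 of the varieties other than AAC Starbuck was added after seeing the data, and the exact p for TraesCS1B02G168500 was 0.025. The span of the TraesCS6B02G255100 share was 4.86 to 31.2 points when a library was left out (exact permutation, p = 0.071 to 0.88). With values of 0 set to 3 reads it was 42.4 points (exact permutation, p = 0.0049). That setting by its construction lowers the share of triads with few reads, so no difference between varieties was read from it. As shares of the summed values the span was 29.2 points, from 63.6% in AAC Concord to 92.8% in AAC Starbuck, and was not tested. The correlation of TraesCS1A02G150900 and TraesCS1B02G168500 was 0.764 to 0.898 when a library was left out, 0.75 without the 2 farthest libraries and 0.651 with the replicate block (exact permutation, p = 0.039). The number of members called across varieties was 1 to 2 when a library was left out and 1 with limma's trend option. The calls over all pairs were 2 to 6 when a library was left out and 7 with the filter at a mean of 50, against 4. The log2 fold change of TraesCS6B02G255100 in AAC Starbuck against AAC Magnet was -0.68 to 0.048 when a library was left out, and its sign turned without replicate 1 of AAC Starbuck. With the replicate block, AAC Magnet against AAC Tradition lost its call for TraesCS6B02G255100 (limma's adjusted p = 0.052), and TraesCS1B02G168500 passed in AAC Starbuck against AAC Tradition (0.039). Whether replicate numbers mark a pairing was not tested. Residuals of libraries with the same number had correlations of -0.14 to 0.21 (median 0.029, 18 pairs). Those of libraries with other numbers were -0.23 to 0.18 (median -0.0067, 36 pairs). Of 12 libraries 7 correlated best with their own number, and the number expected without a pairing was not worked out. Scaling libraries to equal totals moved the median of all genes by up to 0.117 (log2) in a pair. Depth limits the genes TraesCS1D02G147900, TraesCS6A02G226500 and TraesCS6D02G208500, which held 33, 14 and 37 estimated reads in all libraries.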
